A study of Mus musculus with 7 samples.

Results

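The myosin-binding protein C genes Mybpc1, Mybpc3 and Mybphl were followed through RNA sequencing of dissected mouse ventricles at E11.5, a stage of embryonic heart growth. They are the rows of the deposited count table that carry these symbols, 3 of 13701 genes. Mybpc1 was selected on its log2 change in the knockout hearts, the strongest loss after that of Hand1 itself among autosomal genes with a mean of at least 5 CPM (counts scaled to depth), and Mybpc3 and Mybphl were set beside it as its relatives in the heart. The values of Mybpc1 in the knockout against either control group are therefore a description and carry no test. The Hand1 gene product is a basic helix-loop-helix factor that marks the left ventricle as it forms. The knockout embryos (2 libraries) carried the Nkx Cre allele (Nkx Cre +/-) and H1flox/flox, that is both Hand1 alleles floxed. The Cre controls (3 libraries) carried the same Cre allele with wild-type Hand1. The flox controls (2 libraries) were H1flox/flox with no Cre. The Cre, which the series text places at Nkx2.5, acts in heart progenitors and their descendants, and cells outside that lineage keep Hand1. All embryos were of mixed background, the labels give no sex or litter, and p-values measure the spread between these libraries, which may be technical.

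Myosin-binding protein C lies along the thick filament of the sarcomere, binds myosin and actin, and tunes how many myosin heads are free to act and how they cycle. Mybpc3 encodes the cardiac form, and mutations in it are a common cause of inherited hypertrophic cardiomyopathy in people. Mybpc1 encodes the slow skeletal form. Mybphl encodes a short relative that lacks the N-terminal domains and is known from atrial muscle and the conduction system. Their longest annotated coding sequences run to 3381 bases for Mybpc1, 3834 for Mybpc3 and 1065 for Mybphl (GENCODE M21). No stretch of 50 bases was shared between the annotated transcripts of any pair of them, so reads of that length or longer do not match 2 members equally.

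In mm10 coordinates, Mybpc1 lies on the minus strand of chromosome 10 from 88518279 to 88605152 and was counted over 30 exons with a summed length of 3981 bases. Mybpc3 lies on the plus strand of chromosome 2 from 91118144 to 91136516, with 32 exons and 4150 bases. Mybphl lies on the plus strand of chromosome 3 from 108364911 to 108380057, with 9 exons and 1276 bases. Use of strand in the counting is not stated, and an annotated gene on the opposite strand overlaps an end of 2 members. Gm48752 overlaps the first exon of Mybpc1, and Gm12522 overlaps the last exon of Mybphl. Whether reads from these stretches were told apart in the counting is not known.

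The 250 bases before each annotated start are shown because HAND1, with E-protein partners, binds E-boxes, and the members differ in how they stood in the knockout. Sequences are from RefSeq (GRCm38.p6), read 5′ to 3′ on the strand of the gene, and capitals mark each CANNTG, the general E-box, which reads the same on both strands. The windows are chr10:88605153-88605402 on the minus strand for Mybpc1, chr2:91117894-91118143 on the plus strand for Mybpc3 and chr3:108364661-108364910 on the plus strand for Mybphl.
Mybpc1: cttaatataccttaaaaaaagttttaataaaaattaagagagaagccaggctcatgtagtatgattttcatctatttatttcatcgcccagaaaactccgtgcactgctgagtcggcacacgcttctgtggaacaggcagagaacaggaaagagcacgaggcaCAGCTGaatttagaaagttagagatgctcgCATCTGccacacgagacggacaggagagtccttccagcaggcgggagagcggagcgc
Mybpc3: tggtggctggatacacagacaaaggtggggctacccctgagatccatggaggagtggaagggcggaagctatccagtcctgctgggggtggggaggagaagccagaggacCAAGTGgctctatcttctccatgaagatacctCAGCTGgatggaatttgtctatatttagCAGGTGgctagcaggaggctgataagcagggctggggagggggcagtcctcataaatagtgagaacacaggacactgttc
Mybphl: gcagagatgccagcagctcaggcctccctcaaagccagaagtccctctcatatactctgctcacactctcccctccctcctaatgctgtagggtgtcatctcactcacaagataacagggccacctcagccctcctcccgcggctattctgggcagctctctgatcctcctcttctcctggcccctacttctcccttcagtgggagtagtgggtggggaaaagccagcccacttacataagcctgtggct
The Mybpc1 window held 2 E-boxes that begin 87 and 57 bases before the start. The Mybpc3 window held 3, at 140, 108 and 80 bases before its start, and the Mybphl window held none of these letters. At least 1 CANNTG was found in 66.2% of 32851 windows of the same length, so its presence sets neither gene apart. The hexamer CAGCTG, shared by the Mybpc1 and Mybpc3 windows, was found in 13.0% of them. No binding was measured here.

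Library depth ran from 18975283 counts in knockout replicate 2 to 28346700 in knockout replicate 1. Hand1 was counted 37 and 19 times in the knockout libraries, against 2465, 1852 and 2189 times in Cre controls and 875 and 1272 times in flox controls. Knockout replicate 2 stood apart. Over genes, which are not independent replicates, its log2 CPM correlated with that of its closest library at 0.927, and the other 6 libraries each had a closest library at 0.978 to 0.993. Its genes also followed length, as given beside each member below. Xist and Y-linked counts marked both knockout libraries, Cre control replicate 2 and flox control replicate 2 as female. Listed ventricular markers (Myh7, Myl2, Myl3, Irx4, Hey2 and Kcne1) were counted in every library.

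Mybpc1 was almost absent from both knockout libraries and present in all controls. The counts were 17 and 9 in knockout replicates 1 and 2, against 527, 455 and 445 in Cre control replicates 1 to 3 and 173 and 252 in flox control replicates 1 and 2. Exact 95% Poisson intervals of the knockout counts, which cover counting error only, ran from 9.90 to 27.2 and from 4.12 to 17.1. Mybpc1 stood at 0.593 and 0.542 CPM in the knockout, where CPM are counts per unit of library size after TMM, the trimmed mean of M-values between libraries. The values were 20.2, 16.3 and 16.8 CPM in Cre controls and 6.75 and 9.43 CPM in flox controls. The highest knockout library lay far below the lowest control, and the 3 groups did not overlap. Both knockout libraries lay below all 5 controls for 11.6% of the 13695 genes tested, and since Mybpc1 was chosen in this contrast nothing is read from its being among them. The knockout mean was 0.568 ± 0.0364 CPM (SD, n = 2), which is 3.19% of the Cre control mean of 17.8 ± 2.15 (SD, n = 3) and 7.02% of the flox control mean of 8.09 ± 1.90 (SD, n = 2). The log2 change in the fit with all 7 libraries was -4.95 ± 0.28 (SE) against Cre controls and -3.81 ± 0.28 against flox controls. In whole-ventricle RNA, fewer cells that express a gene and less RNA in each cell cannot be told apart.

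Among autosomal genes with a mean of at least 5 CPM, Hand1 and then Mybpc1 had the most negative log2 change in both comparisons. Next came Rgs5 (-4.40) against Cre controls and Mab21l2 (-2.78) against flox controls. Without these limits, over all 13695 genes tested, Mybpc1 ranked 10 against Cre controls and 9 against flox controls, with Y-linked genes among those before it. Its log2 change was -4.87 against Cre controls and -3.74 against flox controls without knockout replicate 2, and -5.02 and -3.89 without knockout replicate 1. Relative to the mean of the 2 control group means, Mybpc1 lay at -4.15 in knockout replicate 1 and -4.27 in replicate 2 (log2). The 1369 genes of similar length, 3509 to 4147 bases, had medians of -0.03 and -0.31 in these libraries. Among Cre controls the female library, replicate 2, stood at 16.3 CPM and the males at 20.2 and 16.8 CPM. Among flox controls the female library, replicate 2, stood at 9.43 CPM and the male at 6.75 CPM. Both knockout libraries were female, and the part of sex was not tested. Among libraries whose identifiers start with NT (both knockouts and flox control replicate 2) the log2 change was -4.03.

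**Figure D1:**
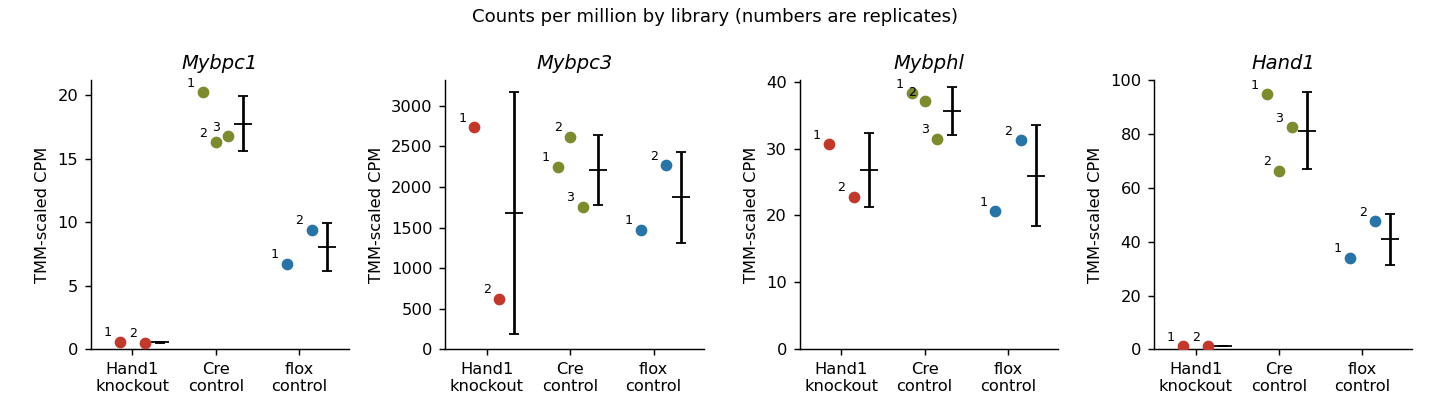
TMM-scaled CPM (vertical axes, linear and starting at 0) of Mybpc1, Mybpc3, Mybphl and Hand1 in each library, with the replicate number beside each point and the group mean ± SD as a bar. Mybpc1 and Hand1 are lowest in the knockout, highest in Cre controls and intermediate in flox controls, while the Mybpc3 values of the 2 knockout libraries (2736 and 626 CPM) lie above and below all controls.

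Mybpc1 also stood higher in the Cre controls than in the flox controls, a contrast in which the gene was not chosen. Its level in Cre controls was 2.20-fold that in flox controls, and each of the 3 Cre controls lay above both flox controls. Over all genes tested, 17.2% showed that order of the libraries. The log2 difference, Cre over flox, was 1.14 ± 0.22 (SE) and did not pass the edgeR quasi-likelihood test with all 7 libraries (adjusted p = 0.772). That test called 0 of 13695 genes (0%) between the controls, with 428 at an unadjusted p under 0.05. DESeq2, which called 73 of 13700 genes (0.533%), gave 1.14 ± 0.27 for Mybpc1 (adjusted p = 0.0103). With the 5 control libraries alone, edgeR gave 1.13 ± 0.18 (adjusted p = 0.0673; 0.409% of genes called) and DESeq2 1.13 ± 0.21 (adjusted p = 2.40e-05; 2.89% called). The DESeq2 call was lost when any 1 control library was left out. The adjusted p was then 0.278 without flox control replicate 2 and 0.431 or more without any of the other 4, while the difference stayed between 0.92 and 1.41. The difference in Mybpc1 between the controls shares its libraries with both knockout comparisons and is not independent of them.

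Mybpc1 and Hand1 ranked the libraries alike. By CPM, the 7 libraries fell in one order for both genes, with knockout replicate 2 lowest and Cre control replicate 1 highest. The 95% Poisson intervals of Mybpc1 in the 2 knockout libraries overlap, so the order of these libraries is not read as a result. Mybpc1 was chosen for its loss in the knockout, so the place of both knockout libraries below the controls adds nothing. The order is not particular to this pair. Ypel2 gave it too, with a far smaller edgeR log2 change of -0.30 against Cre controls and -0.20 against flox controls. The share of all genes with this order was not counted. Per kilobase of exon, Mybpc1 amounted to 10.2, 11.7 and 9.69% of Hand1 in Cre controls and 9.43 and 9.45% in flox controls, although both genes stood higher in the Cre controls. In the knockout, where both were low, it amounted to 21.9 and 22.6%. These knockout ratios rest on 17 and 9 counts of Mybpc1 and 37 and 19 counts of Hand1. Their counting error was not computed, and neither their closeness nor their height is read as a result. Hand1 in the Cre controls averaged 81.2 ± 14.2 CPM (SD, n = 3) and in flox controls 40.9 ± 9.53 (SD, n = 2), and its DESeq2 difference between them missed the threshold with all 7 libraries (log2 1.00 ± 0.28, adjusted p = 0.0718). With the control libraries alone it passed in DESeq2 (log2 0.99 ± 0.20, adjusted p = 2.04e-04), and with the knockouts in the fit and any 1 control left out it did not (adjusted p between 0.384 and 1.00).

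Mybpc3, the cardiac form, was the most abundant member and showed no change shared by both knockout libraries. Its level was 2736 and 626 CPM in the knockout libraries, replicates 1 and 2, against 2251, 2620 and 1756 CPM in Cre controls and 1474 and 2270 CPM in flox controls. Knockout replicate 1 lay above all 5 controls and replicate 2 below all of them. The knockout mean of 1681 ± 1492 CPM (SD, n = 2) compares with 2209 ± 434 (SD, n = 3) in Cre controls and 1872 ± 563 (SD, n = 2) in flox controls. The log2 change was -0.39 ± 0.62 (SE) against Cre controls (edgeR adjusted p = 0.696) and -0.16 ± 0.67 against flox controls (edgeR adjusted p = 0.932). In each comparison edgeR called 2 of 13695 genes (0.0146%), neither of them Mybpc3 or Mybphl, with 2110 genes at an unadjusted p under 0.05 against Cre controls and 1145 against flox controls. DESeq2 also called neither change (adjusted p = 0.714 and 0.951), in comparisons where it called 4.05% and 2.2% of genes. The knockout libraries differ too much for a change of this size to be detectable. Without knockout replicate 2 the log2 change was 0.33 ± 0.30 against Cre controls (edgeR adjusted p = 0.684) and 0.56 ± 0.31 against flox controls (edgeR adjusted p = 0.308), in fits that called 0.46% and 0.336% of genes. Without knockout replicate 1 it was -1.82 ± 0.35 (edgeR adjusted p = 0.00268) and -1.58 ± 0.35 (edgeR adjusted p = 0.00730), in fits that called 64.3% and 55.1% of all genes. Both pairs of fits assume that the lone knockout library varies like the controls. A call of Mybpc3 without replicate 1 is shared with most genes and does not set the gene apart.

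The distance of Mybpc3 from the controls in knockout replicate 2, -1.67 (log2), was larger than that of most genes of its length. The 1370 genes of 4147 to 4974 bases had a median of -0.44 in that library, and 9.49% of them lay lower than Mybpc3. In knockout replicate 1 Mybpc3 lay at 0.45, where the same genes had a median of -0.06 and 94.7% of them lay lower. With the length trend of each library removed, the log2 change of Mybpc3 was -0.26 ± 0.55 against Cre controls and -0.01 ± 0.60 against flox controls. Between the controls, Cre over flox, it was 0.24 ± 0.61 (edgeR adjusted p = 0.999).

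Mybphl, the short relative, passed the test in none of the 3 comparisons with all 7 libraries. It stood at 30.7 and 22.8 CPM in the knockout, against 38.3, 37.1 and 31.5 CPM in Cre controls and 20.6 and 31.3 CPM in flox controls. The knockout values lay within the range of the flox controls and below all 3 Cre controls, where 18.9% of all genes tested also lay. The log2 change was -0.41 ± 0.25 (SE) against Cre controls (edgeR adjusted p = 0.389) and 0.05 ± 0.27 against flox controls (edgeR adjusted p = 0.951). DESeq2 gave adjusted p-values of 0.414 and 0.933. The difference between the controls, Cre over flox, was 0.46 ± 0.25 (edgeR adjusted p = 0.999). In knockout replicate 2, Mybphl lay at -0.39 while the 1369 genes of 1194 to 1671 bases had a median of 0.40, and 12.3% of them lay lower. Removal of the length trend gave a change of -0.66 ± 0.35 against Cre controls (edgeR adjusted p = 0.378) and -0.18 ± 0.38 against flox controls (edgeR adjusted p = 0.916), so the direction against flox controls turned with the correction.

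**Figure D2:**
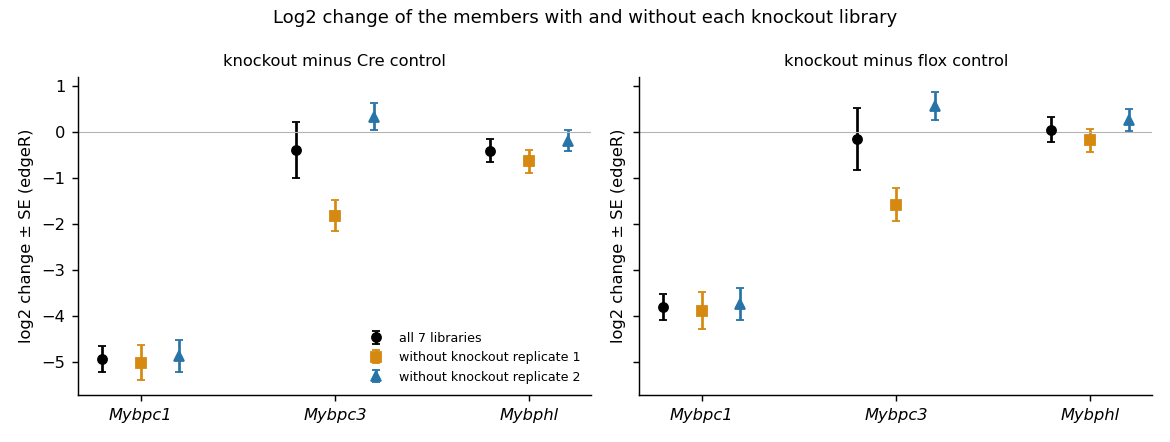
Log2 change ± SE (vertical axes) of the 3 members in the knockout against Cre controls (left) and flox controls (right), fitted by edgeR with all 7 libraries and without either knockout library. Mybpc1 lies between -5.02 and -3.74 in every fit shown, whereas Mybpc3 lies below 0 without knockout replicate 1 and above 0 without knockout replicate 2.

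Levels of different genes were compared per kilobase of exon, as RPKM (the TMM-scaled CPM divided by the deposited length). Mybpc3 stood highest in every library, then Mybphl, then Mybpc1. Mybpc3 averaged 405 ± 360 RPKM in the knockout (SD, n = 2), 532 ± 105 in Cre controls (SD, n = 3) and 451 ± 136 in flox controls (SD, n = 2). Mybphl averaged 21.0 ± 4.36, 27.9 ± 2.84 and 20.3 ± 5.91 RPKM in the same groups, and Mybpc1 0.143 ± 0.00914, 4.47 ± 0.540 and 2.03 ± 0.477 RPKM. The ranges of the 3 genes over the libraries did not overlap. Of the 3 members summed per length, Mybpc3 made up 96.5 and 89.3% in the knockout and between 93.6 and 95.3% in the 5 controls. Mybpc1 never exceeded 0.933%.

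Ratios within a library are free of the scaling between libraries. Mybpc1 amounted to 0.0226 and 0.0903% of Mybpc3 per length in the knockout, against 0.937, 0.648 and 0.997% in Cre controls and 0.477 and 0.433% in flox controls. The knockout libraries lay below all controls by this measure, although their denominators differed. Since Mybpc1 was chosen for its loss in the knockout, low knockout ratios with Mybpc1 as numerator add nothing to that loss. Against Mybphl, Mybpc1 amounted to 0.620 and 0.761% in the knockout, against 17.0, 14.1 and 17.1% in Cre controls and 10.5 and 9.67% in flox controls. The ratio of Mybphl to Mybpc3 was 3.65% in knockout replicate 1, below all controls, and 11.9% in replicate 2, above all of them. It was 5.53, 4.60 and 5.83% in Cre controls and 4.55 and 4.48% in flox controls.

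**Figure D3:**
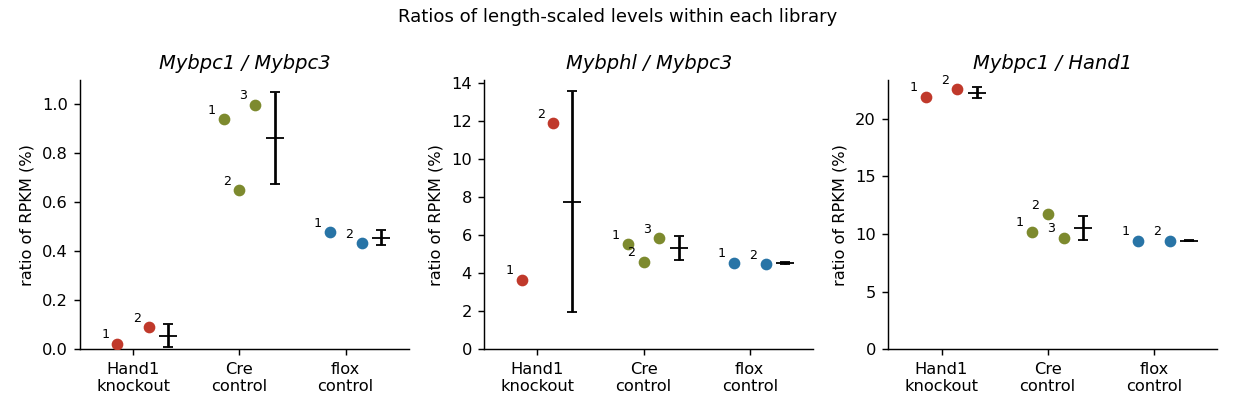
Ratios of RPKM within each library (vertical axes, percent, from 0) for Mybpc1 over Mybpc3, Mybphl over Mybpc3 and Mybpc1 over Hand1, with replicate numbers and the group mean ± SD. The first ratio is below 0.1% in both knockout libraries and between 0.433 and 0.997% in the controls, and the third lies between 9.43 and 11.7% in all 5 controls.

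Mybpc2, which encodes the fast skeletal form, is not one of the 3 members but belongs to the family. It was counted 20 and 3 times in the knockout, against 16, 26 and 19 times in Cre controls and 12 and 26 times in flox controls. At this depth its level, at most 0.973 CPM, was near that of Mybpc1 in the knockout, and no difference was detectable (edgeR adjusted p = 0.519 against Cre controls and 0.733 against flox controls). In the authors' deposited table of the knockout against Cre controls, the log2 changes were -4.97 for Mybpc1, -0.40 for Mybpc3, -0.43 for Mybphl and -0.69 for Mybpc2.

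Few of the other sarcomere genes passed a test. Of 24 listed genes of the thick filament, its assembly and the M-band, 18 were measured, and of 20 thin filament genes 19 were. None passed the edgeR test with all 7 libraries in either knockout comparison, where 0.0146% of all genes passed. DESeq2 placed 1 thick and 1 thin filament gene higher in each comparison, where it placed 1.6% of all genes higher against Cre controls and 0.672% against flox controls. Myl7, the atrial regulatory light chain, rose against flox controls (log2 1.20 ± 0.32, DESeq2 adjusted p = 0.0145), with 0.72 without knockout replicate 2 and 1.55 without replicate 1. Mylpf, the fast skeletal regulatory light chain, rose against Cre controls (log2 1.54 ± 0.41, DESeq2 adjusted p = 0.00877), with 0.76 without knockout replicate 2 and 2.04 without replicate 1. Tnni2, fast skeletal troponin I, rose in both, with log2 1.94 ± 0.33 against Cre controls and 1.69 ± 0.37 against flox controls (DESeq2 adjusted p = 2.13e-06 and 8.6e-04). Tnni2 stood at 60.4 and 67.7 CPM in the knockout, against 16.8, 21.0 and 13.1 CPM in Cre controls and 25.3 and 15.4 CPM in flox controls. Both knockout libraries lay above all 5 controls, as they did for 8.19% of all genes tested. Tnnt1, slow skeletal troponin T, fell against flox controls (log2 -0.93 ± 0.21, DESeq2 adjusted p = 0.00214), where DESeq2 placed 1.53% of all genes lower. Without each library in turn, DESeq2 kept the call of Tnni2 against Cre controls in 7 of 7 fits and against flox controls in 6, losing it without flox control replicate 2 (adjusted p = 0.329). With the knockout and flox libraries alone DESeq2 did not call it either (log2 1.69 ± 0.53, adjusted p = 0.636). The calls of Myl7, Mylpf and Tnnt1 were lost when single controls were left out, with adjusted p-values of up to 0.999, 0.181 and 0.790.

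Between the controls DESeq2 called 1 thick filament gene higher in Cre controls, Myom2 of the M-band (log2 1.45 ± 0.39, adjusted p = 0.0404; 0.139% of all genes called higher), and 1 thin filament gene lower, Tnnt1 (log2 -1.01 ± 0.19, adjusted p = 1.23e-04; 0.394% called lower). With the control libraries alone DESeq2 kept both (adjusted p = 0.0121 for Myom2 and 3.40e-09 for Tnnt1), where it called 2.89% of all genes. With the knockouts in the fit, both calls were lost when any 1 control was left out. Mybpc1 and Tnnt1 are both genes of the slow skeletal program, and between the controls their differences had opposite signs.

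The median log2 change of the thick filament genes was -0.14 against Cre controls and -0.06 against flox controls, with -0.00082 and 0.02 over all genes tested. For the thin filament genes it was 0.06 and 0.36. Without knockout replicate 2 the thick filament medians were 0.20 and 0.30. Knockout replicate 2 placed 6 of the 18 thick filament genes more than 1 log2 unit below the controls and 3 (Mylpf, Myl1 and Myl7) more than 1 above, where it placed 18.6% and 16.7% of all genes. Replicate 1 placed none of the 18 at either side. In replicates 1 and 2, Myh7 (beta-myosin heavy chain) deviated by 0.42 and -2.72 and Myh6 (alpha-myosin heavy chain) by 0.63 and -2.17, a split like that of Mybpc3.

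**Figure D4:**
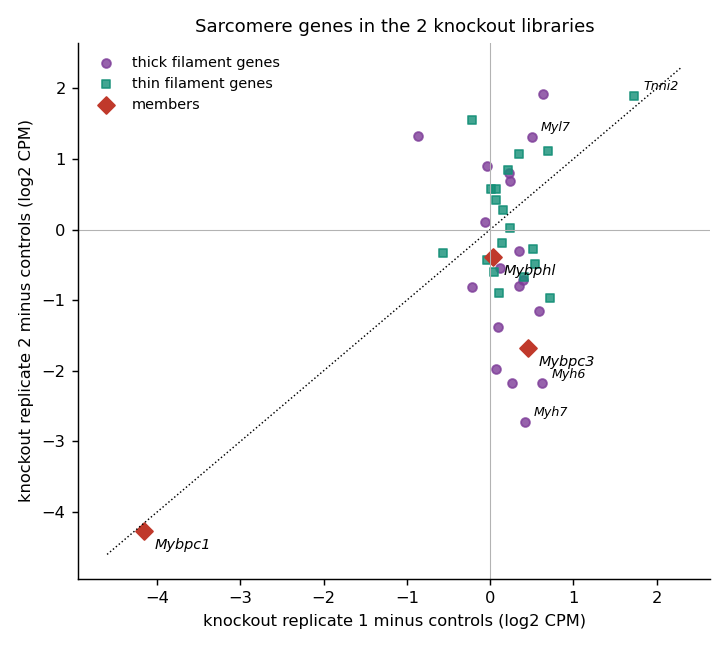
Log2 CPM of each measured thick filament gene (circles), thin filament gene (squares) and member (diamonds) in knockout replicate 1 (horizontal axis) and replicate 2 (vertical axis), each relative to the mean of the 2 control group means; the dotted line marks equal values. Mybpc1 sits at -4.15 and -4.27, while Mybpc3 sits with Myh6 and Myh7, near 0.5 in replicate 1 and below -1.5 in replicate 2.

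Enzymes that phosphorylate or dephosphorylate myosin-binding protein C, and partners that bind it, were listed as 12 genes, all measured. None passed the edgeR test in any comparison (median log2 -0.21 against Cre controls and -0.17 against flox controls), and none passed in DESeq2 with all 7 libraries. The 3 with the highest RPKM were Ppp2ca, the catalytic subunit of protein phosphatase 2A, Prkaca, the catalytic subunit of protein kinase A, and Fhl1, a LIM-domain partner. Their DESeq2 log2 changes against Cre controls were 0.11, -0.03 and -0.12, and against flox controls 0.15, 0.06 and -0.29.

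Since Mybpc1 is best known from skeletal muscle and Mybphl from atria and conduction tissue, markers of these were read beside the members. Of 17 skeletal muscle markers 7 were measured. The defining factors Myod1, Myog, Myf5 and Pax7 had no row among the deposited counts, so their levels are not known. The summed level of the 7 was 45.6 and 75.6 CPM in the knockout, between 34.0 and 38.3 CPM in Cre controls and 39.0 and 35.3 CPM in flox controls. Mylpf made up 21.6 and 52.7 CPM of the knockout sums, and none of the 7 was at 0 in any library. The median of the 7 genes relative to the controls was 0.16 in knockout replicate 1 and -0.70 in replicate 2 (log2), where 3 of them lay below -1. All 10 atrial markers were measured, with sums of 5298 and 9168 CPM in the knockout, between 5337 and 6012 CPM in Cre controls and 5717 and 4837 CPM in flox controls. The median of the 10 atrial genes relative to the controls was 0.04 in knockout replicate 1 and -0.08 in replicate 2 (log2). DESeq2 with all 7 libraries called 2 of the 10 higher and 1 lower in each knockout comparison. It called 4.05% of all genes against Cre controls and 2.2% against flox controls. Sln, a low member of the atrial list, had 0.105 and 1.69 CPM in the knockout and between 0.973 and 2.15 CPM in the controls. The 9 conduction markers summed to 681 and 496 CPM in the knockout, between 697 and 760 CPM in Cre controls and 670 and 746 CPM in flox controls. Their median relative to the controls was -0.39 in knockout replicate 1 and -1.43 in replicate 2 (log2). In replicate 2, 5 of the 9 lay below -1, as did 18.6% of all genes, and in replicate 1 0 did. Markers of outflow tract or second heart field (5 of 7 measured) summed to 83.8 and 139 CPM in the knockout, between 110 and 147 CPM in Cre controls and 185 and 169 CPM in flox controls. Epicardial markers (5 of 5) summed to 346 and 274 CPM in the knockout, between 270 and 333 CPM in Cre controls and 286 and 281 CPM in flox controls. Endocardial markers (5 of 5) summed to 666 and 433 CPM in the knockout, between 717 and 785 CPM in Cre controls and 794 and 850 CPM in flox controls. Their median relative to the controls was -0.00038 in knockout replicate 1 and -1.32 in replicate 2 (log2), where 3 of the 5 lay below -1. Erythroid markers (5 of 6) summed to 2943 and 14140.3 CPM in the knockout, between 4306 and 8006 CPM in Cre controls and 3676 and 4079.5 CPM in flox controls. The medians in knockout replicates 1 and 2 were -0.48 and -0.10 for outflow or second heart field markers. They were 0.23 and -0.26 for epicardial and -0.57 and 1.34 for erythroid markers. The part of any of these cells in the values of the members was not tested.

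The genes whose profile was most like that of Mybpc1 were ranked by Pearson's r of log2 CPM over the 7 libraries, among 12458 genes with a mean of at least 1 CPM. Hand1 ranked first at r = 0.997. It was followed by Tmem178 at 0.989, Smoc1, a secreted matrix protein, at 0.985, Cdkn2b, a cyclin-dependent kinase inhibitor, at 0.985, and Zfp251 at 0.984. Smad4, the shared mediator of BMP and TGF-beta signals, Ypel2, Plekhb1, Snap91 and Sowaha followed, between 0.983 and 0.981. The libraries fall into separate groups and r ignores the size of a change, so these values describe a shape. Smad4 stood at 82.8 and 85.0 CPM in the knockout, against 115, 121 and 120 CPM in Cre controls and 103 and 112 CPM in flox controls. Tmem178 stood at 2.34 and 2.29 CPM in the knockout, against 6.57, 5.77 and 7.09 CPM in Cre controls and 5.19 and 5.09 CPM in flox controls. Only Hand1 among the 10 came near Mybpc1 in the size of its change. In all, 53 genes had r above 0.95. The relatives of Mybpc1 ranked far lower, with r = 0.519 for Mybphl and 0.470 for Mybpc3. Without knockout replicate 2 Hand1 still ranked first, and 2 of the 10 genes remained among the first 10. With the 5 controls alone Hand1 ranked 56 and none of the 10 genes remained.

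The neighbours of the members were read from the deposited coordinates, with the 2 nearest genes taken on either side. Around Mybpc1, Chpt1, a phospholipid synthesis enzyme, lies 14.3 kb and Sycp3, a protein of the meiotic chromosome axis, 45.0 kb beyond its 3′ end. Arl1 lies 126 kb and Utp20 141 kb beyond its 5′ end. None of the 4 passed as lower in edgeR or DESeq2. Utp20 averaged 41.3 CPM in the knockout, 61.8 CPM in Cre controls and 58.7 CPM in flox controls (edgeR adjusted p = 0.380 and 0.645). Chpt1 averaged 73.6 CPM in the knockout, 28.6 CPM in Cre controls and 35.4 CPM in flox controls (edgeR adjusted p = 0.361 and 0.665). Sycp3 averaged 1.76 CPM in the knockout, 0.222 CPM in Cre controls and 0.496 CPM in flox controls. DESeq2 placed it higher than in Cre controls (log2 2.98 ± 0.80, adjusted p = 0.00951), edgeR did not (adjusted p = 0.270), and it did not pass against flox controls (DESeq2 adjusted p = 0.321). Around Mybpc3 (Slc39a13, Spi1, Madd and Nr1h3) no neighbour passed either test in the knockout. Around Mybphl, Psma5, Sort1 and Celsr2 passed neither. Psrc1, 3.75 kb beyond the 3′ end of Mybphl, rose against flox controls in DESeq2 (log2 0.72 ± 0.21, adjusted p = 0.0279) and did not pass in edgeR (adjusted p = 0.420).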

How the data were processed

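Polyadenylated RNA of 7 ventricle libraries was sequenced. The deposited values are raw counts per gene, per the file headers, with gene coordinates and exon length in bases, another deposited column. The deposited table also holds the authors' log2 fold changes and p-values for the knockout against Cre controls. Tools named in the submitters' processing notes are STAR 2.4.2a, Subread 1.5.0 with featureCounts, and edgeR, on mm10. Settings, annotation and use of strand are not given in the sources used here.

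Groups came from the genotype labels. All 7 libraries were fitted in 1 edgeR 4.0.16 quasi-likelihood model (TMM, filterByExpr, robust) in R 4.3.3, with 1 mean for each group. The 13695 genes left by the filter were called at a Benjamini-Hochberg adjusted p below 0.05. DESeq2 1.42.0 and the other settings were alternatives, and length trends came from mgcv 1.9.3. Log2 CPM used a prior count of 2. The tests were checked on simulated counts in which every gene had the same spread between replicates and no library stood apart. That check does not cover a library like knockout replicate 2 or a gene as variable as Mybpc3.

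The members and gene lists were chosen with earlier results of these data known. Named were the members, Hand1, the 10 genes most like Mybpc1, list members that passed in either tool (otherwise the 3 with the highest RPKM) and the 2 neighbours on either side. DESeq2 on the compared groups alone and without each library were added after seeing the data. Intervals cover counting error only.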

Additional observations from a re-analysis of the deposited data

How the results depend on the processing

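The values that chose Mybpc1 kept their sign in every fit. With 1 library left out its log2 change lay between -4.02 and -3.51 (edgeR) and -4.01 and -3.52 (DESeq2) against flox controls, and between -5.02 and -4.82 against Cre controls, where it was -4.77 with the length trend removed. Its difference between the controls, Cre over flox, was 1.14 by DESeq2 with all libraries and 1.13 with the controls alone, past the threshold, and 0.92 to 1.43 with 1 library left out. Mybpc3 turned direction with the library left out. It ran from -1.58 to 0.56 (edgeR) and -1.56 to 0.57 (DESeq2) against flox controls, where it was 0.24 by DESeq2 without flox control replicate 2. It ran from -1.82 (edgeR) and -1.80 (DESeq2) to 0.33 against Cre controls. Between the controls it ran from -0.028 (edgeR) and -0.037 (DESeq2) to 0.62. Mybphl against flox controls was -0.078 without scaling factors, -0.18 with the length trend removed, -0.21 with NT libraries alone, -0.16 by DESeq2 without knockout replicate 1, and -0.21 to 0.42 with 1 library left out. Against Cre controls Mybphl was -0.64 to -0.19 with 1 library left out, and between the controls 0.19 to 0.83. By DESeq2 without knockout replicate 1 it was -0.62 against Cre controls, a fit that leaves 1 knockout library and sets no gene apart.

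Of the 49 listed filament, kinase and partner genes edgeR called 0 in each comparison. With all libraries DESeq2 called 3 against flox controls, 2 against Cre controls and 2 between the controls (2.2%, 4.05% and 0.533% of all genes). With the compared groups alone it called 0 against flox controls, 2 against Cre controls and 5 between the controls (0.0584%, 1.96% and 2.89% of all genes). There edgeR called 1 between the controls (0.409% of all genes). With 1 library left out the counts ran from 0 to 33 against flox controls and 0 to 35 against Cre controls. Between the controls they ran from 0 to 6. The highest against either control group came without knockout replicate 1. Against flox controls these were 33 by DESeq2 and 29 by edgeR, in fits that called 52.6% and 55.1% of all genes. The 35 against Cre controls came from edgeR, in a fit that called 64.3% of all genes. These fits leave 1 knockout library, so nothing is read from their counts. The 6 between the controls came from DESeq2 without knockout replicate 1 (2.65% of all genes called) and again without replicate 2 (2.61%). Without knockout replicate 2 DESeq2 called 7 against flox controls and 7.38% of all genes. Levels per length averaged over the groups, with 1 library left out, ran from 2.10 to 2.33 RPKM for Mybpc1, 378 to 548 for Mybpc3 and 21.7 to 24.5 for Mybphl. Of the 10 genes most like Mybpc1, 1 remained by Spearman's rho and 0 with the controls alone. Hand1 and Ypel2 both reached the highest possible rho, so the count of 1 depends on how ties were ordered. No paired analysis was possible because the labels number no replicates across groups.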
